A study of Mus musculus with 472 samples.

Results

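Neuropeptides are small signalling proteins that neurons release beside their fast transmitter. Each is cut from a larger precursor by prohormone convertases, trimmed by carboxypeptidase E and often amidated, then stored in dense core vesicles and released to act on G protein-coupled receptors of nearby cells. In the retina most neuropeptides, among them neuropeptide Y, somatostatin, enkephalin and the tachykinins, are known from amacrine cells, the inhibitory interneurons of the inner retina, whereas PACAP, the product of Adcyap1, is known from ganglion cells that make the photopigment melanopsin.

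Described here are 9 neuropeptide precursor genes, Cartpt, Adcyap1, Cck, Gal, Tac1, Penk, Nmb, Npy and Sst, across all single retinal ganglion cells of the series. The genes were found by their symbol among the 55450 gene columns of the deposited table. Ganglion cells are the output neurons of the retina. They came from C57BL/6J mice aged 7 to 9 weeks, no treatment or genotype group is labelled, and each cell was recorded with a patch pipette and then sucked into it for full-length cDNA amplification with Smart-seq2. Each library is 1 cell and no animal is named, so the cells form 1 group without replicates, no difference was tested and no p-value is given. Intervals are exact (Clopper-Pearson) 95% limits for counting error, and they hold no spread between animals.

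The libraries held a median of 5184792.5 gene counts (58907 to 13004880), of which 7 held under 1000000, and fell into 5 groups by library name, called runs A to E, of which B holds 98 cells, C 62, D 59, E 19 and A all the others. Runs A, D and E were read from a flow cell code, but B and C from an order number, so these are not shown to be single sequencing runs. Spike-in RNA took a median of 0.738% of counts and up to 31.1%. Levels are counts per 1000000 gene counts (CPM), a gene at 10 CPM or more counts as positive, and the median cell had 5554.5 positive genes (up to 8937). At least 3 of 12 ganglion cell markers were positive in 98.7% of cells, as the label says, but at least 3 of 8 markers were also positive in 79.4% of cells for Müller glia, in 63.8% for rods, in 31.4% for bipolar cells and in 26.7% for amacrine cells. The Müller glia markers were uneven: Clu, Glul, Dkk3 and Apoe were positive in 57.2% to 91.1% of cells, and Rlbp1, Slc1a3, Sox9 and Aqp4 in 12.3% to 40.5%. The marker counts are given beside each result that moves with them, and their part in it was not tested.

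Cartpt and Sst, respectively the most widely and the least widely detected of the 9 genes, both carry a full cyclic AMP response element, the site of the CREB family of transcription factors, before their annotated start. The element TGACGTCA reads the same on both strands. RefSeq promoter entries (assembly GRCm38.p6) were found for 8 of the 9 genes, and the 250 bases before the start were searched. The windows of both genes follow 5′ to 3′ on the strand of the gene, with the element in capitals.
Cartpt: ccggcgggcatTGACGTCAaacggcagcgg
Sst: gcctccttggcTGACGTCAgagagagagtt
The Cartpt window lies at chr13:99900777-99900806 on the minus strand and the Sst window lies at chr16:23890874-23890903 on the minus strand. Longer GENCODE transcripts of both genes begin further upstream, so the windows lie inside those annotated gene spans. The same letters occur in 508 of 32851 promoter entries (1.55%). The shorter core TGACG, searched on both strands and contained in the full element, was present for 5 of the 8 genes, namely Cartpt, Sst, Adcyap1, Cck and Tac1, and in 17.8% of all entries. A match is a run of letters and not a measured site, and the pair of genes that share the full element lie at opposite ends of the range of detection.

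At least 1 of the 9 genes was positive in 86.7% of cells (83.2% to 89.6%), and 2 or more were positive in 54.9% (50.3% to 59.4%). By run, the share with at least 1 lay between 79.7% in D and 100% in E. The 9 genes together gave a median of 129.04 CPM per cell, with quartiles of 47.5 and 374.4 CPM, a lowest value of 0 and a highest of 5351 CPM. No member was positive in 63 cells (13.3%), 1 was in 31.8% of cells, 2 in 29.7%, 3 in 17.4%, 4 in 28 cells, 5 in 5 and 6 in 4. The number rose with the number of genes detected in the cell: the median was 3477 positive genes in cells with no member, 5117.5 with 1, 5595.5 with 2 and 6031 with 3. The part of detection in the count of members was not separated further, but in cells with at least 3000 positive genes the share with 2 or more members was 60.7%.

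**Figure D1:**
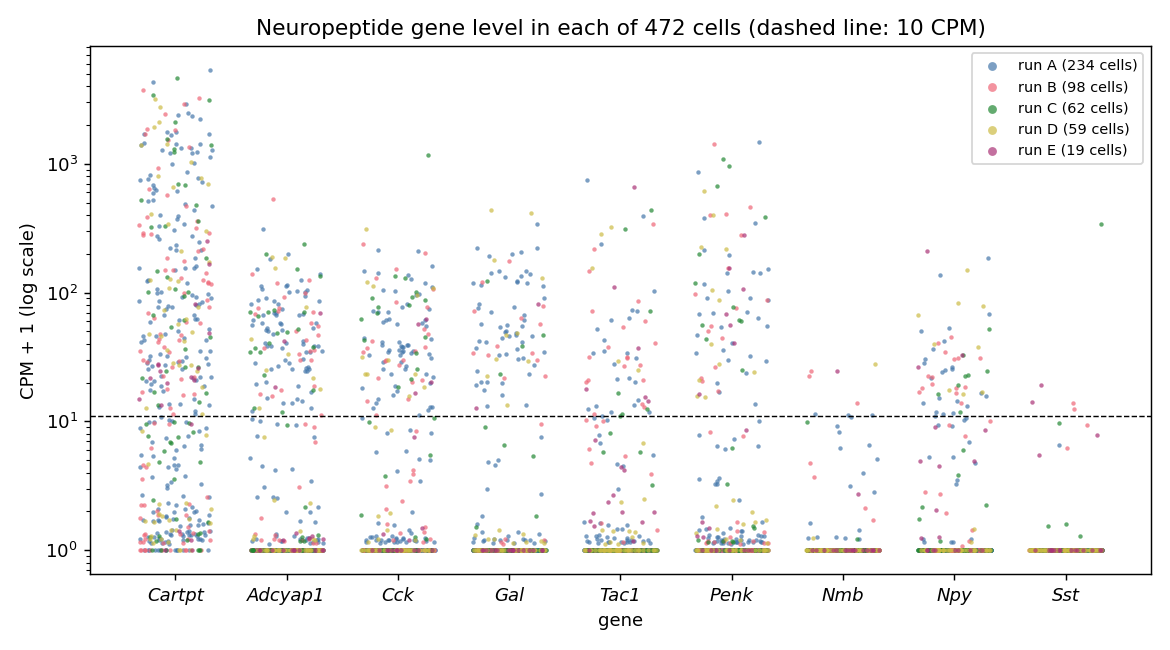
Level of each neuropeptide gene in each cell, as CPM + 1 on a log axis, with 1 point per cell coloured by run and a dashed line at 10 CPM. Cartpt spreads from 0 to 5351 CPM, most cells lie at or near 0 for the other 8 genes, and Sst has a single cell above 100 CPM.

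Cartpt, which encodes the precursor of cocaine- and amphetamine-regulated transcript peptide and is a known marker of direction-selective ganglion cells, was the most widely detected. It lies at chr13:99898489-99901091 on the minus strand (mm10, GENCODE M21; ENSMUSG00000021647). Its level ran from 0 through a median of 22.6 CPM to 5351 CPM, and 58.9% of cells (54.3% to 63.4%) were positive. The gene was at 0 in 34 cells, from 100 to 1000 CPM in 92 and at 1000 CPM or more in 49, and the others lay between. The levels thus covered the whole range, and the share depended on the threshold: it was 73.7% at 1 CPM and 29.9% at 100 CPM. By run it lay between 56.4% in A and 73.7% in E. The 10 highest cells held 26.3% of the summed CPM, and the highest of all, a run A cell at 5351 CPM, had 9 ganglion cell markers, 2 amacrine markers and 0 bipolar markers.

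Adcyap1, the PACAP precursor (chr17:93199017-93206537, plus strand), had a median of 0 and a highest level of 530 CPM. It was positive in 28.8% of cells (24.8% to 33.1%), where the median was 48.8 CPM. The share ran from 15.8% in run E and 16.9% in D to 33.9% in C. Cck, the cholecystokinin precursor (chr9:121489824-121495694, minus strand), also had a median of 0. A single run C cell reached 1165 CPM, the next 313.3 CPM, and 26.3% of cells (22.4% to 30.5%) were positive at a median of 37.98 CPM. The run C cell was 1 of the 7 with under 1000000 counts and had 1842 positive genes, and it was also among the 5 highest for Cartpt at 3397 CPM. For both genes positive cells had more detected genes than the others, with medians of 6044.5 against 5342 for Adcyap1 and 6083.5 against 5237 for Cck.

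Gal, the galanin precursor (chr19:3409915-3414544, minus strand), was positive in 86 cells (18.2%, 14.8% to 22%) and reached 435.7 CPM. Its positive cells had a median of 48.1 CPM, and 25 cells lay at 100 CPM or more. The share differed by run more than that of Cartpt, with 24.4% in A, 16.9% in D, 13.3% in B, 10.5% in E and 6.45% in C. Without run A it was 12.2%.

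Penk, which encodes the enkephalin precursor (chr4:4133531-4138819, minus strand), was positive in 79 cells (16.7%, 13.5% to 20.4%) at a median of 74.97 CPM. Its level was uneven between cells, since the 10 highest held 55.1% of the summed CPM. The 3 highest cells stood at 1476, 1414 and 1089 CPM. The first had 4 amacrine, 5 bipolar, 8 rod and 8 Müller glia markers. The second had 2, 0, 4 and 3 of these, and the third had 0, 1, 0 and 4. Of the 32 cells with Penk at 100 CPM or more, 11 had at least 3 amacrine markers and 30 at least 3 Müller glia markers. Among all cells the shares with these were 26.7% and 79.4%.

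Tac1, the precursor of substance P and neurokinin A (chr6:7554879-7565834, plus strand), was positive in 62 cells (13.1%, 10.2% to 16.5%) at a median of 31.8 CPM and reached 748 CPM. Here the 10 highest cells held 64.6% of the summed CPM. Npy, the neuropeptide Y precursor (chr6:49822710-49829507, plus strand), was positive in 59 cells (12.5%, 9.65% to 15.8%), at a median of 23.4 CPM with a highest value of 208.2 CPM, and 4 cells lay at 100 CPM or more. The intervals of the shares of Tac1, Npy and Penk overlap, so their order is not resolved at this number of cells. Tac1 was positive in 31.6% of the 19 run E cells and in 8.47% to 20.4% of the other runs. The Npy shares by run lay between 10.3% and 15.8%.

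Nmb and Sst were rare. Nmb, the neuromedin B precursor (chr7:80902227-80905076, minus strand), was positive in 8 cells (1.69%, 0.735% to 3.31%) at up to 27 CPM. Sst, the somatostatin precursor (chr16:23889573-23890958, minus strand), was positive in 5 cells (1.06%, 0.345% to 2.45%), at 342.8, 18.3, 13.3, 12.9 and 11.5 CPM. The highest Sst cell was a run C cell with 8937 positive genes, the most of all cells, and with 10 ganglion cell, 7 amacrine, 7 bipolar, 7 rod and 7 Müller glia markers. Of the 5 cells, 4 had at least 3 amacrine markers, and each had at least 3 bipolar, rod and Müller glia markers.

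**Figure D2:**
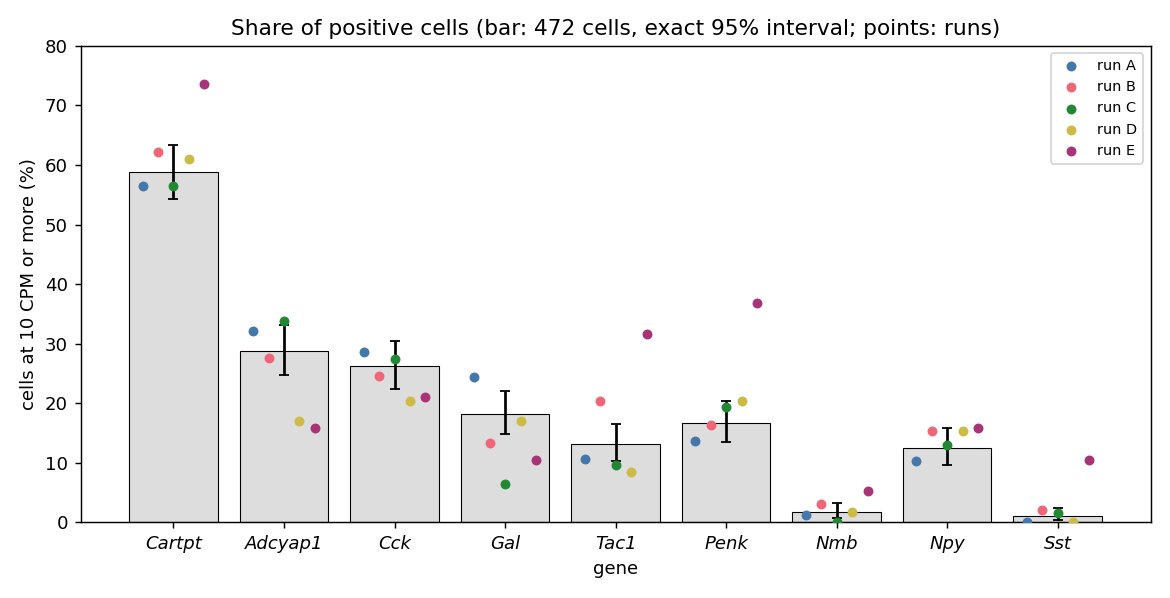
Share of cells at 10 CPM or more for each gene, as bars over all cells with exact 95% intervals, and as points for the 5 runs. Cartpt at 58.9% stands above all others, Gal is highest in run A at 24.4%, and run E, with 19 cells, is highest for Cartpt, Tac1, Penk, Nmb, Npy and Sst.

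Because longer transcripts yield more reads in full-length libraries, levels of different genes are compared here per kilobase of exon. On that scale the mean was 231.3 CPM per kb for Cartpt, 19.7 for Penk, 18.9 for Gal, 14.1 for Cck, 8.68 for Npy, 5.07 for Adcyap1, 3.80 for Tac1, 1.29 for Sst and 0.558 for Nmb. In positive cells the median level per length was 82.6 CPM per kb for Cartpt, 61.03 for Gal, 45.9 for Penk, 41.4 for Npy, 29.1 for Cck, 12.9 for Adcyap1 and 9.37 for Tac1. Adcyap1 thus came second by share of cells but low by level per length. The length joins all annotated exons of a gene over its transcripts, and its part in this order was not tested. Among the cells with a positive member, the highest per length was Cartpt in 47.9%, Gal in 74 cells (18.1%), Penk in 40, Adcyap1 in 32, Cck in 31, Npy in 21, Tac1 in 11, Nmb in 3 and Sst in 1.

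The members were then followed across groups of cells defined by other genes at 10 CPM. A member was called higher in a group where its share was at least 2 times that of all other cells and lower where it was at most 0.5 times. The same rule over all 15225 genes positive in 10 or more cells gives the background, and Nmb and Sst were too rare to enter it, which leaves 7 members. Of these 7, Cartpt was positive in 51.5% to 64.2% of the other cells, except for the group with Müller glia markers (46.4%). A share 2 times as high was thus not possible outside that group, and Cartpt could be called lower but not higher. The groups overlap and are named by their genes.

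Gal was higher in cells positive for Spp1 and Kcng4, genes known to mark alpha ganglion cells, the large cells with fast axons. These were 22.5% of cells. In them Gal had a median of 9.16 CPM and a highest value of 435.7 CPM, and 53 (50%, 40.1% to 59.9%) were positive, against 33 of the other cells (9.02%, 6.29% to 12.4%), a ratio of 5.55. Gal was the single member of 7 called higher in this group, where 6.3% of all genes were, and none was called lower, where 3.82% were. Run A holds 77.4% of the group, and within run A the shares were 52.4% against 9.21%. Within run D they were 54.5% of 11 cells against 8.33%, and within run B 25% of 8 cells against 12.2%, so the difference had the same direction in the runs with few such cells. Of the 25 cells with Gal at 100 CPM or more, 17 (68%) were positive for Spp1 and Kcng4. Cells of the group had more positive genes than the others (median 6462.5 against 5365), and a near equal share with 3 or more amacrine markers (26.4% against 26.8%).

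Gal was also higher in cells with Tbr1, a transcription factor of several ganglion cell types (31 of 79, 39.2%, against 13.99%, ratio 2.80), where 4.36% of all genes were higher and 5.77%, but no member, lower. The 2 groups share 39 cells. Gal was positive in 53.8% of the shared cells, in 47.8% of the 67 with Spp1 and Kcng4 alone, in 25% of the 40 with Tbr1 alone (12.7% to 41.2%) and in 7.06% of cells with neither. The share in Tbr1 cells was 46.9% in run A and 0 of 9 cells in run C (up to 33.6%). In 6 other groups Gal was lower. It was positive in 2 of 50 cells with Col25a1 and Cdh6 (4% against 19.9%, where 4.91% of all genes were lower) and in 6 of the cells with Bnc2 (5.50% against 22.04%, with 3.83% of genes lower). In cells with Mmp9 and Htr1d it was 5.45% against 22.1%, in those with Neurod2 8.06% against 19.8% and in those with Irx3 without Eomes 8.47% against 19.6%, where 4.08%, 3.98% and 5.33% of all genes were lower. At a threshold of 1 CPM the Gal ratio with Neurod2 was 0.83 and that with Irx3 without Eomes 0.54, so neither was called there. With Irx3 without Eomes no member was higher (5.13% of genes were). In the sixth, Gal was positive in 0 of 17 cells with Foxp1 and Irx4, which allows a share of up to 19.5%, and the ratio was 0.74 at a threshold of 1 CPM.

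Cartpt and Cck were both frequent in cells positive for Col25a1 and Cdh6, which are known to mark ON-OFF direction-selective ganglion cells. In these 50 cells Cartpt had a median of 1070 CPM, against 16.3 CPM in the other cells, and 46 (92%, 80.8% to 97.8%) were positive against 54.98%. The ratio of the shares, 1.67, stays under 2 since most cells hold some Cartpt, but the levels differ more. Of the 49 cells with Cartpt at 1000 CPM or more, 26 (53.1%, 38.3% to 67.5%) were in the group. Of those under 10 CPM, 4 cells (2.06%) were. High Cartpt was not particular to this group: of the 49 cells, 29 (59.2%) had Bnc2, 22 (44.9%) Mmp9 and Htr1d, and 19 (38.8%) Pou4f3. With Bnc2 the Cartpt median was 105.8 CPM against 14.1 CPM. In the 75 cells with Bnc2 but not both Col25a1 and Cdh6, 68% were positive for Cartpt. Over all runs, cells with Spp1 and Kcng4 lay at the other end, with a median of 5.74 CPM against 31.3 CPM. Of these cells 40.6% were positive for Cartpt, against 64.2% of the others. In run A, which holds 77.4% of the group, these shares were 34.1% against 68.4%. In run D they were 63.6% of 11 cells against 60.4%. Pooled over runs B to E, the Cartpt share was not lower in the group than in the other cells. The low Cartpt share over all runs thus rests on run A.

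Cck was positive in 31 of the 50 cells with Col25a1 and Cdh6 (62%, 47.2% to 75.3%) against 22.04% of the others, a ratio of 2.81, in a group where 6.58% of all genes were higher. The direction was the same in each run, for example 61.3% against 23.7% in A and 4 of 7 cells against 21.98% in B. Cck was high together with Adcyap1 in the cells with Bnc2, which encodes a zinc finger protein. Of the Bnc2 cells (23.1% of all), 57 (52.3%, 42.5% to 61.95%) were positive for Adcyap1 against 21.8%, and 53 (48.6%, 38.9% to 58.4%) for Cck against 19.6%. These were 2 of 7 members, where 4.81% of all genes were higher. Tac1 was lower there at 6.42% against 15.2%, a ratio of 0.42 that was 0.61 at a threshold of 1 CPM. By run, the Adcyap1 shares were 58.5% against 21.9% in A and 50% against 21.1% in B, but 31.2% of 16 cells against 34.8% in C, and the Cck shares were 52.3% against 19.5% in A and 27.3% against 23.7% in B. Without run A the Adcyap1 ratio was 1.99, compared with 2.40 in all cells.

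Cells with Mmp9 and Htr1d, of which 73 also had Bnc2 and 37 did not, gave the same members: Adcyap1 in 48.2% against 22.9% and Cck in 45.5% against 20.4%, where 4.49% of genes were higher. The Adcyap1 ratio was 2.10, and 1.97 without run D. The median number of positive genes was 6172.5 in cells with Mmp9 and Htr1d against 5398.5 in the others. It was 5994 against 5430 for Bnc2 and 6045 against 5474 for Col25a1 and Cdh6. The part of detection in the Adcyap1 and Cck calls was not tested. Splitting the overlap, Adcyap1 was positive in 60.3% of cells with all of these genes (48.1% to 71.5%), 36.1% of 36 with Bnc2 alone, 24.3% of 37 with Mmp9 and Htr1d alone and 21.5% of cells with neither. The cells with Bnc2 and those with Col25a1 and Cdh6 overlapped in 34 cells. Adcyap1 was positive in 43 of 75 cells with Bnc2 alone (57.3%) and in 2 of 16 with Col25a1 and Cdh6 alone (12.5%, 1.55% to 38.3%), whereas Cck was positive in 42.7% and 62.5% of the same cells.

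The share of cells positive for Adcyap1 was not raised in those with melanopsin genes, but the highest Adcyap1 cell, at 530 CPM, had both Opn4 and Eomes. Among the 52 cells with Opn4, the melanopsin gene, 12 (23.1%, 12.5% to 36.8%) were positive for Adcyap1 against 29.5% of the others. Among the 41 with Eomes, a transcription factor of melanopsin cells, it was 26.8% against 29%. The mean Adcyap1 level was 20.4 CPM against 18.97 CPM with Opn4 and 30.4 CPM against 18.1 CPM with Eomes, means that include that cell. The Opn4 interval includes the share of the other cells, and the threshold of 10 CPM takes in cells with little Opn4. Npy was the single member called higher with Opn4 (12 of 52, 23.1%, against 11.2%, ratio 2.06), where 6.46% of all genes were, and 44.2% of the Opn4 cells had 3 or more amacrine markers against 24.5%. This call lay at the threshold, with a ratio of 1.95 without run A, 1.80 without C and 1.99 without D. No member was called higher or lower with Eomes (4.68% of genes higher and 7.34% lower), with Pou4f3 (4.12% and 2.9%) or without Pou4f1 (1.08% and 14.8%). The ratio of Gal with Eomes was 0.51 and that of Cck without Pou4f1 0.52, both just above the limit for a lower call. Cells without Pou4f1 had fewer positive genes than the others (median 4137 against 5773).

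Tac1 was higher in the 36 cells with Foxp2, a transcription factor of several ganglion cell types: 13 (36.1%, 20.8% to 53.8%) were positive against 11.2%, where 4.81% of genes were higher. Adcyap1 was lower in them at 13.9% against 30.05%, where 9.41% of genes were lower. That ratio was 0.46, but 0.87 at a threshold of 1 CPM. Of the Foxp2 cells, 38.9% had 3 or more amacrine markers, against 25.7% of the others. Penk was higher in the 62 cells with Neurod2 (19, 30.6%, 19.6% to 43.7%, against 14.6%), where 5.81% of genes were higher, and 46.8% of these cells had 3 or more amacrine markers against 23.7%. The Penk ratio was 2.09, and 1.86 without run C and 1.90 without run E. Of the 32 cells with Penk at 100 CPM or more, 10 had Neurod2. In the 17 cells with Foxp1 and Irx4, Penk (8 cells, 47.1%), Npy (7, 41.2%) and Tac1 (6, 35.3%) were higher, where 14% of all genes were (10.5% were lower), and 3 of the 5 Sst cells fell in this group. However, 70.6% of these 17 cells had 3 or more amacrine markers, against 25.1% of the others. The highest Sst cell lay in this group, but also in those of Spp1 and Kcng4, Col25a1 and Cdh6, Opn4 and Eomes. The same cell was in those of Tbr1, Mmp9 and Htr1d, and Hpcal4 and Kctd8 as well. Tac1 was also higher with Hpcal4 and Kctd8, at 22.9% against 10.4% (9.65% of genes higher and 3.07%, but no member, lower), where 50.5% against 19.9% of cells had 3 or more amacrine markers. That ratio was 2.21 in all cells, 1.80 without run A and 1.49 without the cells with 3 or more amacrine markers.

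**Figure D3:**
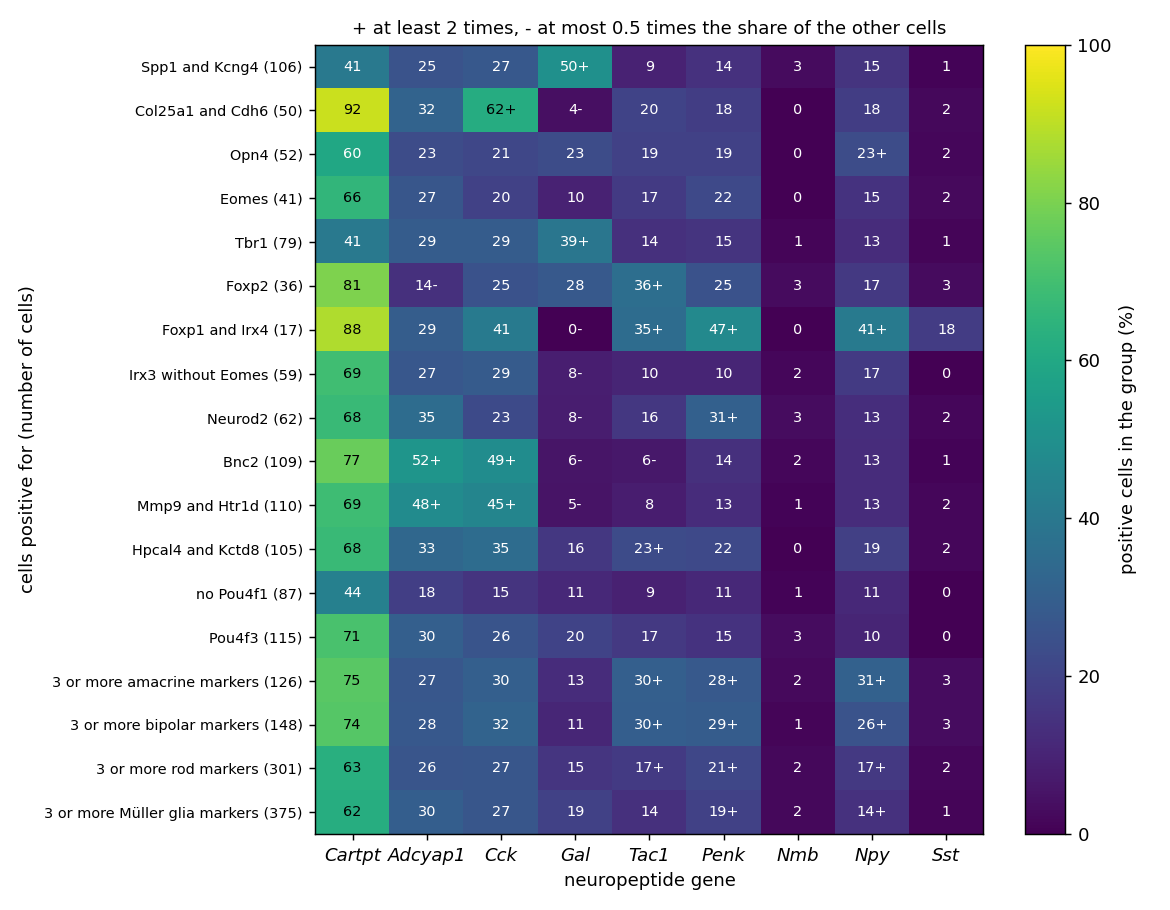
Share of positive cells for each neuropeptide gene (columns) in each group of cells (rows, with the number of cells), in percent. A + marks a share at least 2 times and a - one at most 0.5 times that of all other cells. Nmb and Sst were not called, and Cartpt could not reach + in any row but that of Müller glia markers. Cartpt at 92% and Cck at 62% are highest with Col25a1 and Cdh6, Gal at 50% with Spp1 and Kcng4, and Tac1, Penk and Npy are marked + in the rows of amacrine, bipolar and rod markers.

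The members fell apart when set against the markers of other retinal cells. Among cells with 0, with 1 or 2, and with 3 or more of the 8 amacrine markers (32.8%, 40.5% and 26.7% of cells), the share positive for Npy was 2.58%, 8.38% and 30.95%. For Tac1 it was 5.16%, 8.38% and 30.2%, and for Penk 6.45%, 17.8% and 27.8%. The 5 Sst cells were distributed as 0, 1 and 4. Cartpt, with 54.8%, 51.8% and 74.6%, was also highest in the last. Adcyap1 had 32.3%, 27.2% and 26.98%, Cck 24.5%, 25.1% and 30.2%, and Gal 16.1%, 23.6% and 12.7%. The median number of positive genes also differed between these cells, at 5137, 5246 and 6439.5.

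Set against all other cells, those with 3 or more amacrine markers had a higher share for Npy (ratio 5.35), Tac1 (4.35) and Penk (2.18), that is 3 of 7 members, where 13.1% of all genes were higher. No member was called lower there (1.84% of genes), nor with bipolar (2.16%), rod (1.22%) or Müller glia markers (0.775%). Gal missed that call narrowly with bipolar markers, at 10.8% against 21.6%, a ratio of 0.5004. Npy, Tac1 and Penk were also higher with 3 or more bipolar markers (11.3% of genes) and with 3 or more rod markers (8.7%). Penk and Npy were higher with 3 or more Müller glia markers (26.8%). The Npy difference for amacrine markers was present in each run, from 25% of 12 cells against 0 of 7 (up to 40.96%) in E to 58.3% of 12 cells against 4.26% in D. The Tac1 difference was present in A to D, with 24.4% against 7.41% in A and 40% against 9.52% in B, and was 33.3% of 12 cells against 28.6% of 7 in E. Seen from the genes, 66.1% of the Npy cells, 61.3% of the Tac1 cells and 44.3% of the Penk cells had 3 or more amacrine markers, against 33.8% of the Cartpt cells, 30.6% of the Cck cells, 25% of the Adcyap1 cells and 18.6% of the Gal cells. Whether these transcripts came from the patched cell or from its neighbours was not tested. The markers of other cell types went together: 66.2% of cells with 3 or more bipolar markers also had 3 or more amacrine markers, against 8.64% of the others, and for rod markers it was 36.5% against 9.36%. In cells with no amacrine marker, Tac1, Penk and Npy were still positive in 5.16%, 6.45% and 2.58%.

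**Figure D4:**
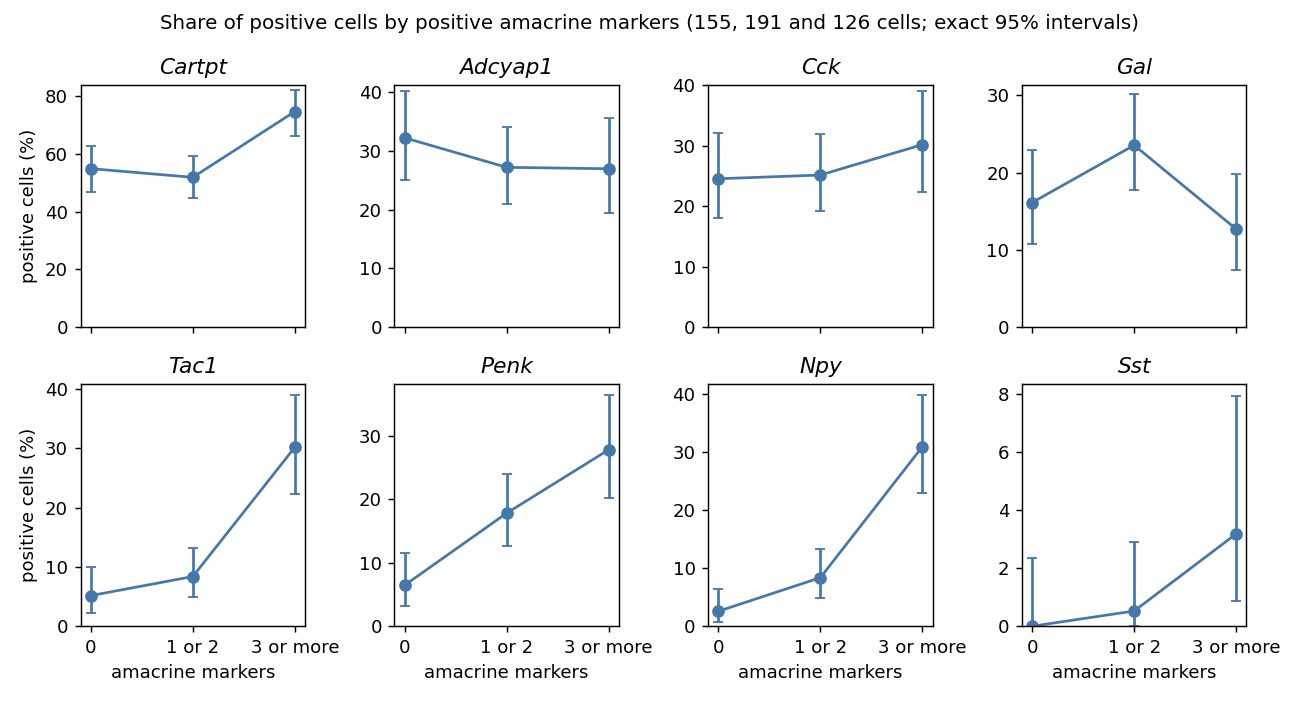
Share of positive cells for 8 of the genes among cells with 0, 1 or 2, and 3 or more positive amacrine markers, with exact 95% intervals; each panel has its own percent axis starting at 0. Tac1, Penk, Npy and Sst climb to the right, from 2.58% to 30.95% for Npy, while the intervals of Adcyap1 and Cck overlap across all 3 positions.

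Pairs of members were counted in the same cells and set beside the number that their shares would give if independent within each run. Among the 7 more frequent members, Cartpt and Gal met least often for their numbers: 28 cells had both, against 50.1. Gal was positive in 10.1% of Cartpt-positive cells (6.80% to 14.2%) and in 29.9% of Cartpt-negative cells (23.5% to 36.9%). Cartpt and Cck met in 92 cells against 72.6, with Cck in 33.1% and 16.5% of Cartpt-positive and Cartpt-negative cells. Adcyap1 and Tac1 met in 10 cells against 17.4, and Adcyap1 and Cck in 43 against 36.5.

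By ratio, the largest excesses among the 7 more frequent members were between the genes that moved with amacrine markers. Tac1 and Npy met in 20 cells against 8.11, Tac1 and Penk in 21 against 11.1, Penk and Npy in 19 against 10.2, and 4 of the 5 Sst cells also had Npy. Cck and Npy met in 22 cells against 15.2, and Cartpt and Npy in 48 against 35.1. Without the cells with 3 or more amacrine markers the ratio to the number from pooled shares was 1.44 for Tac1 and Npy, 1.31 for Tac1 and Penk and 1.18 for Penk and Npy, compared with 2.58, 2.02 and 1.92 in all cells. The low joint count of Cartpt and Gal stayed at a ratio of 0.51 without those cells, compared with 0.55 in all cells, and was 0.73 without run A.

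**Figure D5:**
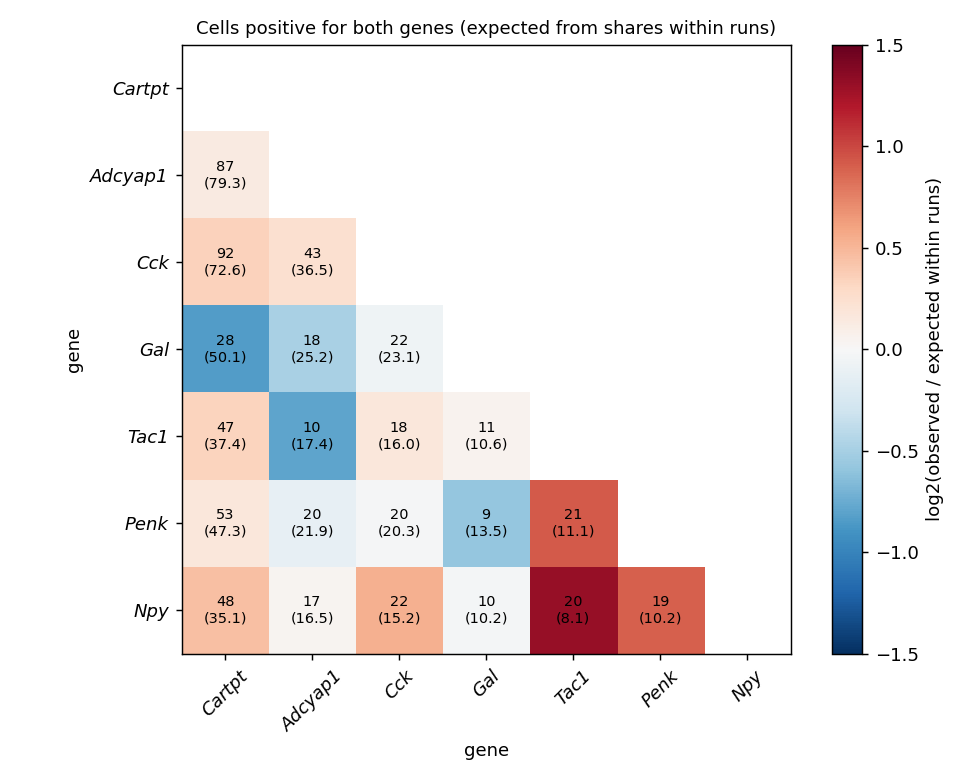
Number of cells positive for both genes of each pair, with the number that independent shares within runs give in parentheses; the colour is the log2 ratio of the 2 numbers. Tac1, Penk and Npy form the red corner, with 20 against 8.1 for Tac1 and Npy, and Cartpt with Gal is the bluest at 28 against 50.1.

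The genes most like each member were sought by Pearson's r of log2(CPM + 1) over all cells, which share runs and differ in depth, and r is given as a description. Cartpt ran with Satb1 (r = 0.45), Cdh6 (0.45), Col25a1 (0.42), A930017K11Rik (0.42) and Chrna3 (0.42), of which Satb1 encodes a chromatin organiser, Cdh6 a cadherin and Chrna3 a nicotinic receptor subunit. Satb1 was positive in 53.6% of Cartpt-positive and 24.7% of Cartpt-negative cells, and Col25a1 in 20.9% and 3.61%. Among runs A to D, each of these r values of Cartpt was highest in run A. In runs A to D in turn, r was 0.55, 0.36, 0.37 and 0.41 with Satb1 and 0.59, 0.36, 0.26 and 0.32 with Cdh6. With Col25a1 it was 0.53, 0.32, 0.26 and 0.31. Gal had the highest values of r of any member: Kcnip2, a potassium channel partner (0.53), Trpc5, a cation channel (0.52), Coch, which encodes cochlin (0.50), Glra1, a glycine receptor subunit (0.48), and Etv1, a transcription factor (0.48). Kcnip2 was positive in 58.1% of Gal-positive cells against 11.9% of the others, Trpc5 in 52.3% against 7.25% and Coch in 83.7% against 29.8%. The r of Gal with Kcnip2 was 0.49, 0.41, 0.79 and 0.65 in runs A to D. With Trpc5 it was 0.56, 0.46, 0.47 and 0.58, and with Coch 0.50, 0.36, 0.59 and 0.61. With Glra1 it was 0.52, 0.34, 0.41 and 0.60. The r with Etv1 differed most by run, at 0.53, 0.22, 0.29 and 0.72.

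Cck ran with Cdh6 (0.41) and Npy with Slc18a3 (0.41), the vesicular acetylcholine transporter of starburst amacrine cells. Slc18a3 was positive in 23.7% of Npy-positive cells and 1.94% of the others. No gene reached r = 0.4 with Adcyap1, whose highest value was 0.28, or with Tac1, whose highest was 0.38.

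Many genes of peptide handling were positive in most cells. Of 10 processing genes, 5 were positive in at least 50% of cells: Pcsk1n, a convertase inhibitor (95.3%), Cpe, carboxypeptidase E (94.1%), Scg5, the chaperone of convertase 2 (87.7%), Pam, the amidating enzyme (78.6%), and Pcsk2, convertase 2 (52.3%). Cpd was positive in 24.8%, Pcsk1, the other neuroendocrine convertase, in 13.98%, Qpct, glutaminyl cyclase, in 12.5%, Furin in 10.6% and Pcsk5 in 2.33%. Of 11 genes for dense core vesicles, 8 were positive in at least 50%: Syt4 (92.8%), Chga (86.2%), Cadps (84.3%), Chgb (82.4%), Ptprn (80.3%), Scg2 (79.9%), Scg3 (71.2%) and Ptprn2 (70.3%). Vgf followed with 40.7%, Syt10 with 2.33% and Cadps2 with 0.636%.

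The convertases differed between members, but no all-gene background was set beside these shares, nor beside the receptor and precursor shares below. Positive cells had more detected genes, with medians of 5815.5 against 5480 for Gal, 5770 against 5143.5 for Cartpt and 6252 against 5451 for Npy. For Adcyap1, Cck and Tac1 the direction was the same, and the part of detection was not tested. Pcsk2 was positive in 80.2% of Gal-positive cells (70.2% to 88%) and 46.1% of the others, but in 44.6% of Cartpt-positive and 63.4% of Cartpt-negative cells. Pcsk1 was positive in 24.4% of Gal-positive and 24.2% of Cck-positive cells, against 11.7% and 10.3% of the respective others. Scg3 was positive in 85.3% of Adcyap1-positive cells against 65.5%, and Vgf in 53.7% against 35.4%. Qpct was positive in 45.8% of Npy-positive cells against 7.75% and in 41.9% of Tac1-positive cells against 8.05%, that is, with the same members that had many amacrine markers.

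Most receptor genes for these peptides were positive in few cells. Of 23 receptor genes, 1 was positive in at least 50% of cells: Vipr2, a receptor for VIP and PACAP, with 63.3% (58.8% to 67.7%). Adcyap1r1, the selective PACAP receptor, had 19.3%, Oprm1, the mu opioid receptor, 9.32% and Npy1r 8.90%. The median over the list was 1.06%, and Tacr2, Oprk1, Npy2r and Sstr1 were positive in no cell, which allows a share of up to 0.778%. Vipr2 was positive in 76.5% of Adcyap1-positive cells against 58.04%, in 81.5% of Cck-positive against 56.9%, in 73.7% of Cartpt-positive against 48.5%, and in 48.8% of Gal-positive against 66.6%. Adcyap1r1 stood at 19.9% and 19.05% in Adcyap1-positive and other cells. For Gal itself, Galr2 was positive in 3 of 86 Gal-positive cells and in none of the others, while Galr1 and Galr3 were in none of the Gal-positive cells (up to 4.20%).

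Of 20 other neuropeptide precursors, none reached 50% of cells and 8 were positive in no cell (up to 0.778%), among them Avp, Cort and Nmu as the first by alphabet. The highest were Tac2, the neurokinin B precursor (12.3%, up to 7576 CPM), Pomc, the proopiomelanocortin gene (8.05%), Calca, the calcitonin gene-related peptide precursor (6.14%), and Pdyn, the prodynorphin gene (5.72%). Tac2 was positive in 37.1% of Tac1-positive cells against 8.54% and in 32.2% of Npy-positive cells against 9.44%. The median share was 0.318% over these 20 genes and 16.7% over the 9 members. Both lists were chosen with earlier results of these data known, so the difference between these medians is no finding about the members.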

How the data were processed

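Smart-seq2 libraries of single mouse retinal ganglion cells were read as 150 bp pairs, per the labels' protocols. Values were deposited as estimated counts for 55450 genes and 92 spike-in RNAs, and 1.37% were not whole. Alignment used STAR 2.7.0 and mm10, per the submitters' processing notes, while neither a counting tool nor an annotation is given in the sources used here. All 55450 gene identifiers are in GENCODE M21, which gave positions and exon lengths.

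Here the estimated counts were rounded and divided by the gene total of the cell without spike-ins, times 1000000 (CPM). All cells were kept, and a gene was positive at 10 CPM or more. No test was run, because a sample is a cell of an unnamed animal. Cells were picked by pipette, so no doublet caller was used and other cell types were followed by their markers. The highest correlation between 2 cells was 0.757, so no library appeared again under another name. Runs A, D and E were read from the flow cell in the library name, B and C from its order number. A share of 0 is given with the upper end of its exact interval.

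The members and lists were chosen with earlier results of these data known. Named are all 9 members, all genes of lists of up to 14 and the 4 highest and 3 lowest of longer ones (ties at 0 aside), members called in a group, and up to 5 genes with the highest r of at least 0.4 per member. A result that this rule names is not reported here. Receptors of a member's own peptide, and list genes set against a member, were picked after their values were seen. Alternatives were thresholds of 1 and 100 CPM, thinning to 1000000 counts, counts not rounded and totals without ribosomal RNA loci. Others kept only cells with at least 3000 positive genes, with fewer than 3 amacrine markers or with fewer than 3 bipolar markers, or left out each run. The software was Python 3.11.15 with numpy 2.4.6, scipy 1.17.1 and pandas 2.3.3, and figures were drawn with matplotlib 3.10.9.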

Additional observations from a re-analysis of the deposited data

How the results depend on the processing

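The share of cells with at least 1 of the 9 genes and that with 2 or more were 91.3% and 69.1% at a threshold of 1 CPM, 45.8% and 9.96% at 100 CPM, and 90.5% and 60.7% in cells with at least 3000 positive genes. Without cells with 3 or more amacrine markers the share with 2 or more was 49.1%, and without cells with 3 or more bipolar markers, an alternative chosen after seeing the data, they were 83.02% and 48.1%. Thinning, unrounded counts, another total and each run left out moved neither by more than its interval. When cells were thinned to 1000000 counts, none of the 33 shares in a group with a call moved beyond its counting interval.

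At 100 CPM, where the groups too are redefined and small, the ratio was 0 for Npy with Opn4, for Gal with Tbr1 (0 of 11 cells), for Tac1 with Foxp2 and for Npy with amacrine markers, 0.63 for Penk with amacrine markers and 0.75 for Tac1 with bipolar markers, and the joint count of Npy with Tac1 and with Penk was 0 of the number expected. Without cells rich in amacrine markers the ratio was 0 for Tac1 and for Npy with Foxp1 and Irx4 (5 cells left), and without those rich in bipolar markers 0 for Tac1 there (7 cells left). The cause was not tested beyond these small numbers.

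Calls with a ratio near 2 or 0.5 depended on the setting. At 1 CPM, Adcyap1 had 1.95 with Bnc2 and 1.86 with Mmp9 and Htr1d, Npy 1.98 with Opn4, Adcyap1 0.87 with Foxp2, Tac1 0.61 with Bnc2, and Gal 0.83 with Neurod2. With at least 3000 positive genes, Adcyap1 had 1.82 with Mmp9 and Htr1d, Tac1 1.86 with Hpcal4 and Kctd8, Penk 1.99 with Neurod2 and Npy 1.997 with Opn4. Penk with Neurod2 had 1.99 after thinning and 3.16 without cells rich in amacrine markers. Gal with Spp1 and Kcng4 ran from 4.29 to 6.53 and Cck with Col25a1 and Cdh6 from 2.55 to 12.5 over all alternatives. The shares of Nmb and Sst rest on 8 and 5 cells. No paired analysis was possible because the labels give no groups with shared replicate numbers.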
